A study of Mus musculus with 3 samples.

Results

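Chemokine receptors are the family of G protein-coupled receptors by which leukocytes read gradients of chemokines and move towards them. Across 3 populations of mouse CD8+ T cells, 6 of their genes were followed, namely Cxcr3, Cxcr4, Cxcr5, Cxcr6, Cx3cr1 and Ccr8. The genes were chosen by symbol, and each had 1 probe set with a single gene symbol in the platform annotation, so all 6 were measured, among 10191 genes in all. The probe sets were 17543625 for Cxcr3, 17226593 for Cxcr4, 17526310 for Cxcr5, 17523642 for Cxcr6, 17532268 for Cx3cr1 and 17523158 for Ccr8. Ligand binding makes these receptors release inhibitory G proteins, which drives integrin activation and movement, and receptor kinases, arrestins and RGS proteins end the signal. CXCR3 is known as the receptor by which effector and memory CD8+ T cells enter inflamed tissue, CXCR4 and CXCR5 guide cells within bone marrow and lymphoid follicles, and CXCR6, CX3CR1 and CCR8 are known from tissue-resident, effector and skin-homing T cells.

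The mice were C57BL/6 carrying the CXCR3-GFP reporter, named CIBER in the labels, and were naive animals kept pathogen-free, of an age not given in the labels. All 3 populations carried the reporter, from which green fluorescent protein is made together with CXCR3. Cells of spleen and lymph nodes were stained for surface markers that included CD44 and CD8 and sorted as CXCR3+ innate, CXCR3- innate or naive CD8+ T cells, with RNA from about 3 to 5 mice, and 1 array was run for each population. Innate is the submitters' name for the cells set apart from naive CD8+ T cells. The labels do not give the gates, nor do they say how the mice were pooled.

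All values are log2 expression values, made by the authors with the RMA method, and a difference of 1 is a 2-fold change. With 1 array per population there is no spread between replicates and no test, so higher and lower refer to these 3 arrays alone, and in bulk RNA fewer cells that express a gene and less RNA per cell cannot be told apart. A gene passed the rule of size used here when its values differed by at least 2-fold and the higher one lay at or above the median of its array over all genes, which was 7.63 for CXCR3+ innate, 7.63 for CXCR3- innate and 7.65 for naive cells. Probe sets differ in response, so each gene is compared with itself between arrays. As a guide to the low end of the scale, the 541 measured olfactory and vomeronasal receptor genes, which have no known part in T cells, had medians of 7.72, 7.74 and 7.70 and 95th percentiles of 9.23, 9.23 and 9.15 on the same arrays. All values of Cxcr3, Cxcr5, Cxcr6 and Ccr8 lay below those 95th percentiles, those of Cx3cr1 lay around them and those of Cxcr4 above. A value within that range does not by itself show that a transcript was present, and no detection call was used here. On all 3 arrays 34.6% of genes had exactly the same value, 46.3% of those with a mean below 7.5 and 5.52% of those with a mean of 9 or above, and an exact tie does not show equal expression.

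The stretches around the transcription starts of 3 members are given first, because Cxcr3 is the gene of the reporter, Cxcr4 differed most of the 6 between the innate arrays, and Cx3cr1 was highest on the CXCR3- innate array. Each holds 250 bases before and 50 after the start, 5′ to 3′ on the strand of the gene, from RefSeq on mouse assembly GRCm38.p6, at chrX:101734098-101734397 (minus strand) for Cxcr3, chr1:128592250-128592549 (minus strand) for Cxcr4 and chr9:120068247-120068546 (minus strand) for Cx3cr1. Capitals mark matches to a RUNX site (TGTGGT), a GC box (GGGCGG) or a TATA box (TATAAA), each searched on both strands.
Cxcr3: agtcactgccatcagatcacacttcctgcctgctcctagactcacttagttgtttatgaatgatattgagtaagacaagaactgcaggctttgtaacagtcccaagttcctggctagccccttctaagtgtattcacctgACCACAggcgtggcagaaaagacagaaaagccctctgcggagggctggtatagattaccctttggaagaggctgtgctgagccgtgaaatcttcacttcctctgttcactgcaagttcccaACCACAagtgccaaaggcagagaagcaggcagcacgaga
Cxcr4: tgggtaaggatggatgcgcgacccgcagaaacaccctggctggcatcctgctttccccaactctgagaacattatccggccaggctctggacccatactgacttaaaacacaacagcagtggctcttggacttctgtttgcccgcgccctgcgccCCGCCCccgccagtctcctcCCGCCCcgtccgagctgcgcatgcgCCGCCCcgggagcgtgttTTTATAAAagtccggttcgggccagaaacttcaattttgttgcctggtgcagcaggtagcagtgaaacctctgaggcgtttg
Cx3cr1: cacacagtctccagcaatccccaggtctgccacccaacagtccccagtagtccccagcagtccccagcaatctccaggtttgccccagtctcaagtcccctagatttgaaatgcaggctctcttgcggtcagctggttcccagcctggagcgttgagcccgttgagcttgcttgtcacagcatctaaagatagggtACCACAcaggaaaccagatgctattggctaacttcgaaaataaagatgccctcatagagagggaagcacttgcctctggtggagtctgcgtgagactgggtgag

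Of the 5 members with an entry in the promoter table, Cxcr3, Cxcr6 and Cx3cr1 held the RUNX letters, which 16.8% of 32851 promoters of that length held. In Cxcr3 they began at -110 and at 12, counted from the start, and in Cx3cr1 at -54. Cxcr4 was the member with TATA letters, at -30 and, overlapping on the other strand, at -32. It also held GC boxes at -95, -75 and -50. The TATA letters occurred in 13.6% of promoters and the GC box in 35.7%. None of the 5 windows held the T-box letters GGTGTGA, bound by T-bet and Eomes and present in 3.98% of promoters, or the KLF letters CCACACC, present in 7.58%. These matches describe the letters alone, and no binding was measured.

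The 6 genes fell into 4 patterns. Cxcr3 and Cxcr5 read highest on the CXCR3+ innate array, next on the CXCR3- innate array and lowest on the naive array. Cx3cr1 and Ccr8 read highest on the CXCR3- innate array. Cxcr4 was highest in CXCR3+ innate and lowest in CXCR3- innate cells, and Cxcr6 was the same throughout. None of the 6 reached 2-fold in any comparison, so these patterns rest on small differences.

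**Figure D1:**
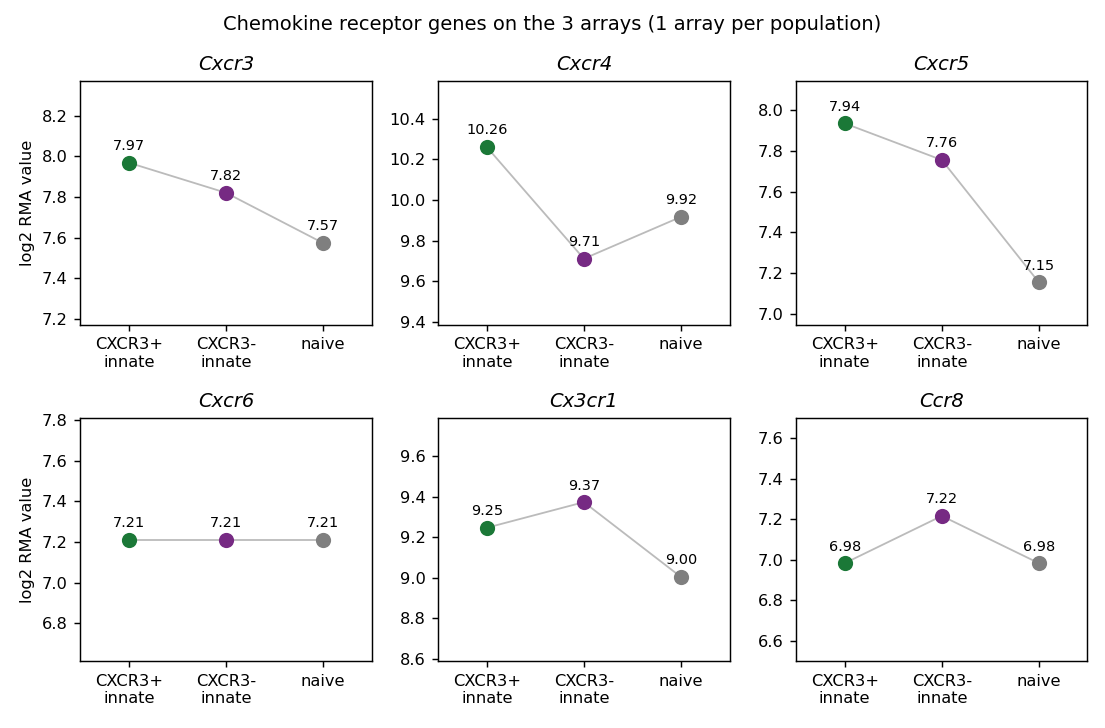
Log2 RMA value (vertical axis, spanning 1.2 in every panel) of each chemokine receptor gene on the CXCR3+ innate, CXCR3- innate and naive arrays; each point is 1 array and there are no error bars because no population was replicated. Cxcr5 has the widest range, from 7.15 in naive to 7.94 in CXCR3+ innate cells, and Cxcr6 reads 7.21 on every array.

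Cxcr3, the receptor for CXCL9, CXCL10 and CXCL11, read 7.97 on the CXCR3+ innate array, 7.82 on the CXCR3- innate array and 7.57 on the naive array. The CXCR3+ innate value was the highest and the naive value the lowest, below the median of its array, so the folds against it may be set by background signal, which was not tested. The difference from naive cells was 0.40, or 1.32-fold, for CXCR3+ innate and 0.25, or 1.19-fold, for CXCR3- innate cells. Differences at least as high were found in 1.34% and 2.75% of genes. Between the innate populations, which the reporter itself defined, Cxcr3 differed by 0.15, and 11.7% of genes had a difference at least as high. That is 1.11-fold in the direction of the labels, too small a difference between single arrays to check the sort.

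The other sort genes are given as a check of the labels. Cd44, the adhesion receptor raised on memory-phenotype T cells, exceeded its naive value 2.08-fold in CXCR3+ innate and 1.56-fold in CXCR3- innate cells. It read 8.30 on the CXCR3+ innate array, 7.88 on the CXCR3- innate array and 7.24 on the naive array. The naive value lay below the median of its array, 7.65. All of these values lay in the range where background and transcript cannot be told apart, so Cd44 is a weak check. The part of background signal in its folds was not tested. Both CD8 coreceptor genes gave bright signals, Cd8a between 9.77 and 10.43 and Cd8b1 between 11.29 and 11.54. Of 10 T cell marker genes 7 were measured, all at 8.31 or above on each array. Of 7 genes of NKT and gamma-delta T cells 2 were measured, with log2 summed levels of 8.75 on the CXCR3+ innate array, 8.77 on the CXCR3- innate array and 8.71 on the naive array. Of 10 genes of stroma, endothelium and red cells 4 were measured, with summed levels of 9.39, 9.55 and 9.74. The rise of that sum towards the naive array was that of Pecam1, which read 7.80, 8.23 and 8.68. Col3a1 and Pdpn were equal throughout, and Col1a1 read 7.26, 7.26 and 7.24. The part of these marker genes in the receptor values was not tested.

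Cxcr5, which binds CXCL13, the chemokine of B cell follicles, read 7.94 on the CXCR3+ innate array, 7.76 on the CXCR3- innate array and 7.15 on the naive array. Both innate values were above the median of their arrays and the naive value was below it. All of them lay in the range where background and transcript cannot be told apart, so the folds and ranks of Cxcr5 are descriptions of these readings. Compared with naive cells, the gene was 1.72-fold higher in CXCR3+ innate cells, with a log2 difference of 0.78 that ranked 27 from the highest of 10191 genes. It was 1.52-fold higher in CXCR3- innate cells, with a difference of 0.60 that ranked 9. Both comparisons use the one naive array, so a low reading there would raise both differences. Between the innate populations the difference was 0.18. With 16 added on the linear scale, which shrinks the differences of dim genes, Cxcr5 stood at 0.72 in CXCR3+ innate and 0.55 in CXCR3- innate minus naive, and the latter is under 1.5-fold.

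CXCR5 is best known from B cells and follicular helper CD4 T cells, and the listed markers of B cells and CD4 T cells are set beside it. Of 12 B cell genes 1 was measured, the class II gene H2-Ab1, at 7.07 on the CXCR3+ innate array, 7.21 on the CXCR3- innate array and 7.04 on the naive array. Cd79a and Ms4a1 were among the 11 that were not among the measured genes. Of 5 genes of CD4 T cells 1 was measured, Foxp3, of regulatory cells, at 7.30, 7.36 and 7.30. Bcl6, the transcription factor of follicular helper cells, named after its values were seen, read 7.34, 7.36 and 7.36. H2-Ab1, like Cxcr5, was lowest on the naive array, but it was highest in CXCR3- innate cells and Cxcr5 in CXCR3+ innate cells. All values of these 3 genes lay below the array medians, where an order between single arrays says little. The part of B cells and CD4 T cells in the Cxcr5 values was not tested. Bcl9l, which overlaps Cxcr5 in RefSeq, read 8.32 on all 3 arrays.

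Cxcr4, the receptor for CXCL12 that holds cells in bone marrow and lymphoid stroma, differed more between the innate populations than the other 5 members. It read 10.26 on the CXCR3+ innate array, 9.71 on the CXCR3- innate array and 9.92 on the naive array. CXCR3+ innate cells stood above and CXCR3- innate cells below naive cells. The innate populations differed by 0.55, or 1.46-fold, and 1.30% of genes had a difference at least as high. CXCR3+ innate minus naive was 0.34 and CXCR3- innate minus naive was -0.21. The latter sign depends on the scaling, since quantile normalization gave 0.0088, while the innate populations then still differed by 0.43.

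Many bright genes read lower on the CXCR3- innate array, and Cxcr4 is one of them. Over the 834 genes with a mean of 9 or above, the median of CXCR3- innate minus naive was -0.20, with 74.3% below 0, next to -0.21 for Cxcr4. For CXCR3+ innate minus naive that median was -0.10, against 0.34 for Cxcr4, and for CXCR3+ innate minus CXCR3- innate it was 0.04, against 0.55. The 95th percentiles of these bright genes were 0.31 and 0.63 in the same order. Cxcr4 thus lay above that percentile in CXCR3+ innate minus naive and below it between the innate populations. The T cell genes Cd3d and Cd3g were also lower on the CXCR3- innate array than on the naive array, by a log2 difference of -0.52 and -0.93, as was Cd8a, at -0.66. Their part in the Cxcr4 value was not tested.

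Cx3cr1, the receptor for the membrane-bound chemokine CX3CL1 and a mark of effector CD8+ T cells, natural killer cells and monocytes, read 9.25 on the CXCR3+ innate array, 9.37 on the CXCR3- innate array and 9.004 on the naive array. The naive array was lowest. CXCR3- innate cells were 1.29-fold above naive cells, a log2 difference of 0.37 that ranked 85 from the highest, while most bright genes were below 0 in that comparison. CXCR3+ innate cells were 1.18-fold above naive cells, with a difference of 0.24. The innate populations differed by -0.13, towards the CXCR3- innate cells. Scaling moved the CXCR3- innate difference from naive upward, to 0.53 after quantile normalization.

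Genes of monocytes and natural killer cells were examined beside Cx3cr1. Of 13 myeloid and dendritic cell genes 5 were measured, and the log2 of their summed linear values was 9.85 on the CXCR3+ innate array, 9.97 on the CXCR3- innate array and 9.88 on the naive array. S100a9, of neutrophils and monocytes, read 8.04, 8.31 and 8.09, while Lyz2 and Csf1r were not among the measured genes. Of 6 natural killer genes 2 were measured, with summed levels of 8.13, 8.23 and 8.065. Ncr1, an activating receptor of these cells, read 7.19, 7.43 and 7.19. The other, Fcer1g, read 7.07, 6.98 and 6.93, so it was highest on the CXCR3+ innate array. It reached 7 there alone, the level that a deposited probe set had on at least 1 array, so this order may follow from that level. All values of both genes lay below the array medians, where an order between single arrays says little. Both summed levels were thus highest on the array where Cx3cr1 was highest, by small amounts. Their part in the Cx3cr1 values was not tested.

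Ccr8, the receptor for CCL1 and in mice CCL8, known from skin-homing and regulatory T cells, read 6.98 on the CXCR3+ innate array, 7.22 on the CXCR3- innate array and 6.98 on the naive array. The CXCR3+ innate and naive values were identical, and all 3 lay below the medians of their arrays. The CXCR3- innate value was 1.18-fold above both of the others, a difference of 0.23. Values were deposited for probe sets at 7 or above on at least 1 array. Ccr8 reached 7 on the CXCR3- innate array alone, so it had values at all only by reading highest there. In RefSeq Ccr8 is the neighbour of Cx3cr1 on chromosome 9, and these were the members with their highest value in CXCR3- innate cells. For Ccr8 that order followed from the required level. Slc25a38, the neighbour on the other side, read 7.06 on all 3 arrays.

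Cxcr6, the receptor for CXCL16 that marks tissue-resident and liver-homing T cells, read 7.21 on each array, below every array median. No difference between populations could be seen, and at this level the tie does not show that there was none. Fyco1, which overlaps Cxcr6 in RefSeq, read 7.90 on each array.

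**Figure D2:**
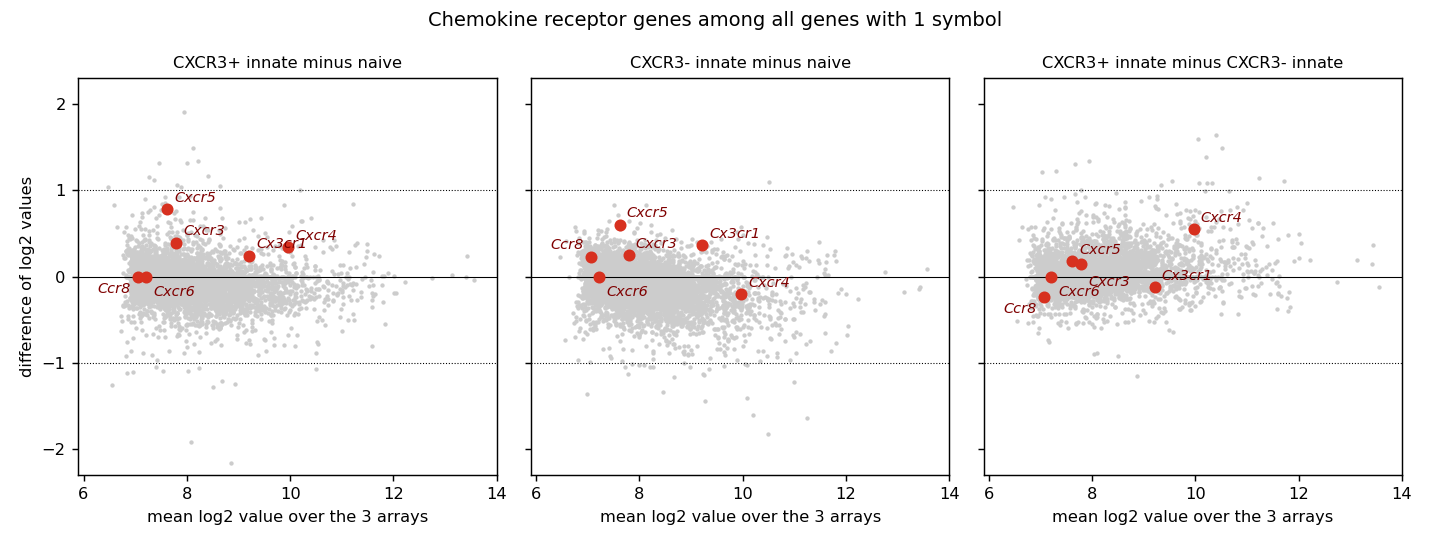
Difference of log2 values (vertical axis) against the mean log2 value over the 3 arrays (horizontal axis) for 10191 genes (grey) and the 6 chemokine receptor genes (red), in 3 comparisons; dotted lines mark 2-fold, and 2 grey genes in the left panel and 1 in the middle panel lie beyond the axis. All red points lie within the dotted lines, with Cxcr5 at 0.78 as the highest in CXCR3+ innate minus naive and Cxcr4 at 0.55 in CXCR3+ innate minus CXCR3- innate.

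Set against all genes, 0 of 6 members passed the 2-fold rule in CXCR3+ innate minus naive, where 0.236% of genes passed in either direction. In CXCR3- innate minus naive 0 of 6 passed, against 0.245% of genes, and in CXCR3+ innate minus CXCR3- innate 0 of 6, against 0.157%. With the threshold at 1.5-fold, Cxcr5 was the member that was higher in CXCR3+ innate minus naive, as were 0.5% of genes, and in CXCR3- innate minus naive, as were 0.0981%. No member was 1.5-fold higher in CXCR3+ innate than in CXCR3- innate cells, where 1.0% of genes were. With shares this low, a count of 0 of 6 does not set the members apart.

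The direction of smaller differences was counted on the deposited values, with their many ties. In CXCR3+ innate minus naive, 4 of 6 members had a difference above 0, against 20.7% of genes, none was below 0 and 2 were equal, and their median was 0.29 next to 0.00 over all genes. In CXCR3- innate minus naive, 4 of 6 were above 0, against 21.6% of genes, 1 was below and 1 was equal, and their median was 0.24 next to 0.00. Both comparisons share the naive array. In CXCR3+ innate minus CXCR3- innate, 3 of 6 were above 0, against 28.7% of genes, and 2 were below, and their median was 0.07 next to 0.00. Ccr8 reached the required level of 7 on the CXCR3- innate array alone, so its side in comparisons with that array followed from that requirement. The members were chosen with earlier results of these data known, so these counts describe them and support nothing further.

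For 4 members whose values ranged over at least 0.3, the genes with the most similar pattern were found among 8578 nameable genes, by the distance between their differences from naive cells. With 3 arrays this compares just 2 numbers per gene. Nearest to Cxcr3 were Gzmm, which encodes the granule protease granzyme M, at a distance of 0.03, and then Sntb2 and Cstl1, both at 0.04. Nearest to Cxcr4 were the proteasome gene Psmb4 at 0.05, the malic enzyme gene Me2 at 0.05 and the cytotoxic granule gene Nkg7 at 0.05. Nearest to Cxcr5 were Eomes, a transcription factor of memory CD8+ T cells, at 0.13, the inhibitory receptor gene Tigit at 0.15 and Ifna7, of the multigene interferon alpha family, at 0.18. Nearest to Cx3cr1 were Slc13a2os at 0.01, Ube2h at 0.05 and Tfpi2 at 0.05.

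How crowded each pattern was differed. Within a distance of 0.1 there were 14 genes for Cxcr3, 7 for Cxcr4, 27 for Cx3cr1 and none for Cxcr5. Eomes read 7.92 on the CXCR3+ innate array, 7.77 on the CXCR3- innate array and 7.06 on the naive array. Gzmm read 7.37, 7.18 and 6.95 in the same order.

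Other receptors of the family were mostly not measured. Of 13 further signalling chemokine receptors 4 were measured, and of 6 atypical receptors, which bind chemokines without G protein signalling, 2 were. Ccr7, the receptor that brings naive T cells into lymph nodes, read 11.19 on the CXCR3+ innate array, 11.56 on the CXCR3- innate array and 12.00 on the naive array, which is the reverse of the order of Cxcr3 and Cxcr5. Its difference from naive cells was -0.81 and -0.44. Cxcr1 and Cxcr2, receptors of neutrophils, Xcr1, of cross-presenting dendritic cells, Ackr2 and Ackr3 each stayed within 0.15 of their naive value. None passed the 2-fold rule in any comparison. Ccr2 and Ccr6 were among those not among the measured genes.

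**Figure D3:**
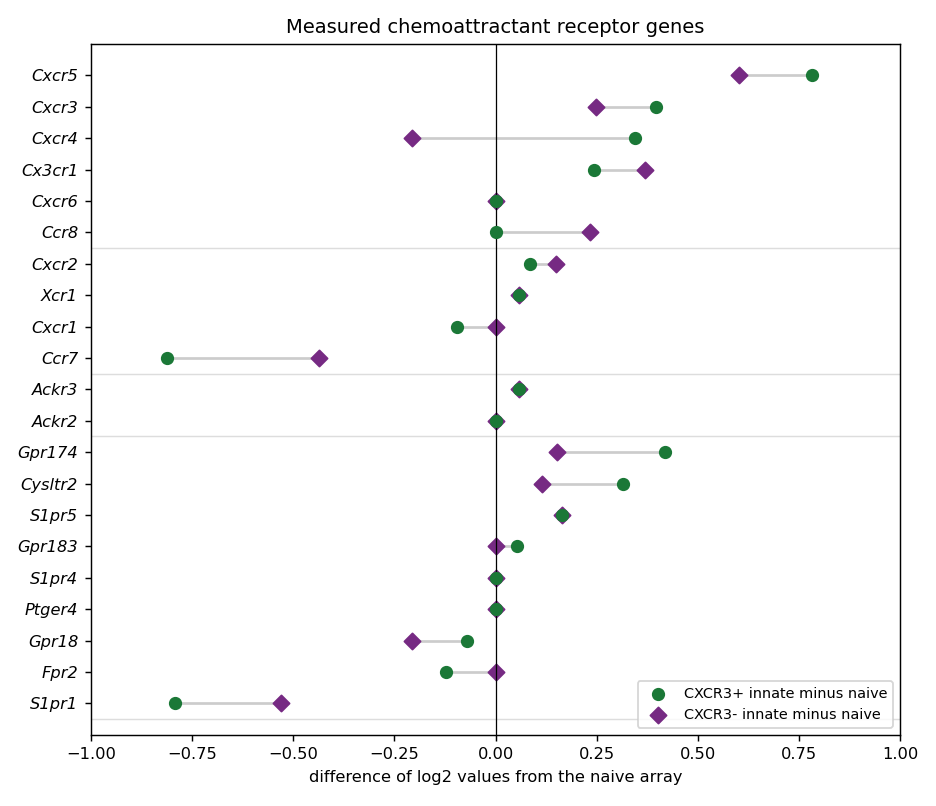
Difference of log2 values from the naive array (horizontal axis) for the measured chemoattractant receptor genes in CXCR3+ innate (green circles) and CXCR3- innate cells (purple diamonds); grey lines separate, from the top, the 6 chemokine receptor genes, other signalling chemokine receptors, atypical receptors and other leukocyte chemoattractant receptors. Both series share the naive array; Cxcr5 lies farthest to the right at 0.78 and Ccr7 farthest to the left at -0.81.

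Receptors that steer leukocytes by other ligands held both directions. Of 25 such genes 9 were measured, and in CXCR3+ innate minus naive 4 were above 0, 3 below and 2 equal. S1pr1, the receptor for sphingosine 1-phosphate that lets T cells leave lymph nodes, read 9.34 on the CXCR3+ innate array, 9.60 on the CXCR3- innate array and 10.13 on the naive array. Gpr174, a receptor for lysophosphatidylserine, read 8.65, 8.38 and 8.23, and Cysltr2, a leukotriene receptor, read 7.15, 6.95 and 6.83. Those 2 genes had the same order as Cxcr3 and Cxcr5. Cysltr2, however, reached the required level of 7 on the CXCR3+ innate array alone. Its highest place there, and its side in comparisons with that array, may follow from that requirement. In CXCR3- innate minus naive 3 were above 0 and 2 below, and the median was 0.00 in each comparison, as over all genes. After quantile normalization, which breaks ties, 7 of the 9 were above 0 in CXCR3+ innate minus naive and 6 in CXCR3- innate minus naive, with medians of 0.04 and 0.07.

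Ligands of the 6 receptors could hardly be judged. Of 11 ligand genes 4 were measured, and Cxcl9, Cxcl10, Cxcl11 and Cx3cl1 were among the others. Cxcl12, the ligand of CXCR4, read 7.58 on both innate arrays and 7.51 in naive cells. Cxcl13, the ligand of CXCR5, read 7.32 on the CXCR3+ innate array, 7.36 on the CXCR3- innate array and 7.32 on the naive array, and Cxcl16 was equal throughout. Mif, a cytokine that also binds CXCR4, read 8.58, 7.89 and 8.40, so it had the order of Cxcr4, and its innate values differed by 0.69. Mif thus differed by more than 1.5-fold between the innate populations and did not reach 2-fold.

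Downstream, 15 of 25 G protein subunit genes were measured and none passed the 2-fold rule. Gnai2, the main inhibitory alpha subunit of lymphocytes, read 10.10 on the CXCR3+ innate array, 9.92 on the CXCR3- innate array and 10.18 on the naive array. The beta subunit gene Gnb1 read 10.18, 9.87 and 10.28. Both were lowest in CXCR3- innate cells. The subunit genes Gng4, at 8.33, 8.205 and 8.12, and Gng7, at 7.80, 7.83 and 7.63, were lowest in naive cells instead. The list median was 0.00 in all 3 comparisons.

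Genes that end the signal leaned lower in CXCR3- innate than in naive cells, and less so after quantile normalization. Of 21 receptor kinase, arrestin and RGS genes 11 were measured. In CXCR3- innate minus naive 8 of them were below 0, at a median of -0.14, while 36.3% of all genes were below 0. That share rises with brightness, to 44.3% of genes with a mean of 7.5 to below 9 and 74.3% of those at 9 or above. Most of the 11 genes read above 7.5 on every array. The receptor kinase gene Grk6 read 9.18 on the CXCR3+ innate array, 8.97 on the CXCR3- innate array and 9.36 on the naive array. Rgs1, which shortens chemokine signals in lymphocytes, read 8.10, 7.68 and 7.91 and Rgs2 read 9.89, 9.57 and 9.91. Rgs14, at 7.32, 7.48 and 7.62, was lowest in CXCR3+ innate cells instead. In CXCR3+ innate minus CXCR3- innate 8 of the 11 were above 0, at a median of 0.08. After quantile normalization 6 of the 11 were below 0 in CXCR3- innate minus naive, at a median of -0.02, and 6 of the 11 were above 0 between the innate populations. Under cyclic loess and under median centring 8 of the 11 stayed below 0 in CXCR3- innate minus naive, with medians of -0.10 and -0.11.

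Most measured genes that carry the signal to the cytoskeleton and integrins read lower on both innate arrays than on the naive one, by less than 2-fold. Of 41 such genes 35 were measured, and on the deposited values none was above 0 in either comparison. In CXCR3+ innate minus naive 26 were below 0, at a median of -0.11, and in CXCR3- innate minus naive 31 were below 0, at a median of -0.18, while 34.2% and 36.3% of all genes were below 0. Rap1b, a small GTPase that activates integrins, read 10.88 on the CXCR3+ innate array, 10.67 on the CXCR3- innate array and 11.35 on the naive array. Vav1, an exchange factor for Rac, read 8.76, 8.40 and 9.02, Coro1a, which binds actin, read 9.61, 9.32 and 9.91, and Pik3cd, a phosphoinositide kinase subunit, read 8.62, 8.49 and 9.01. None passed the 2-fold rule. Many of these genes are bright, and the bright genes as a whole were lower too, with 66.1% and 74.3% below 0. After quantile normalization 22 and 20 of the 35 were below 0, with medians of -0.08 and -0.02, and 13 and 15 were above 0. In CXCR3- innate minus naive, 28 stayed below 0 under cyclic loess, at a median of -0.12, and 26 under median centring, at a median of -0.15.

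**Figure D4:**
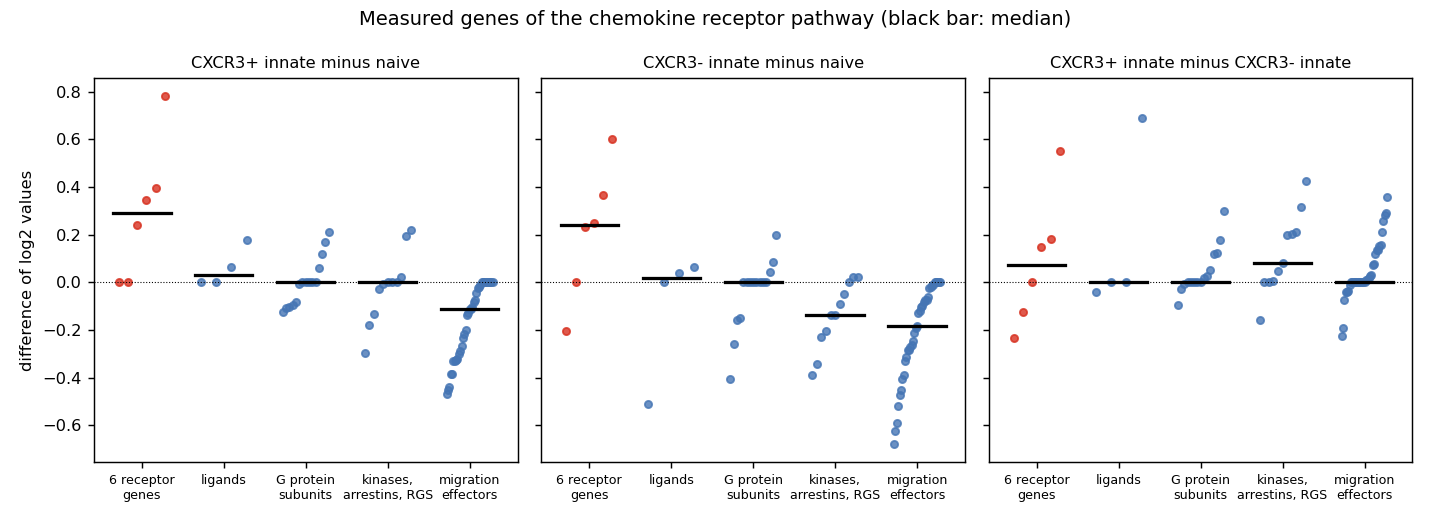
Difference of log2 values (vertical axis) for the 6 receptor genes (red) and the measured genes of their pathway (blue, 1 point per gene) in 3 comparisons; black bars are medians. In the left panel the bar stands at 0.29 for the receptor genes and at -0.11 for the migration effectors, none of which is above 0 on these deposited values, against 13 of 35 after quantile normalization.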

How the data were processed

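Expression was measured on 1 Affymetrix array for each of 3 sorted CD8+ T cell populations. The deposited log2 values were made by the authors with RMA, for which the submitters' processing notes name Affymetrix Expression Console; versions and the genome build of the array are not given in the sources used here. The table held 12417 probe sets, each at 7 or above on at least 1 array, so dimmer genes have no value. The platform annotation paired 10576 probe sets with 1 symbol, and values of a gene were averaged to 10191 genes. The number of arrays limits the precision.

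The 3 comparisons were differences of log2 values, counted by the rule of size given with the results, with no test. The members, lists and rules were chosen with earlier results of these data known. Named were all 6 members, the sort genes, up to 4 listed genes per list with the largest difference or any past the rule, and for each member with a range of at least 0.3 its 3 nearest genes, leaving out predicted genes, olfactory and vomeronasal receptors, small RNAs, histone clusters and antigen receptor segments. The RUNX, KLF, GC and TATA letters, the groups by brightness and the neighbouring genes were chosen after values were seen. Alternatives were quantile normalization, cyclic loess, median centring, an offset of 16, other filters, thresholds and probe set rules. Simulated data were used to test the counting by size. Normalization ran in limma 3.58.1 under R 4.3.3, and the rest in Python 3.11.15 with pandas 2.3.3 and numpy 2.4.6.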

Additional observations from a re-analysis of the deposited data

Results flagged for a closer look

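Cxcr4 lay on opposite sides of its naive value in the innate populations, with a log2 difference of 0.34 in CXCR3+ innate minus naive and -0.21 in CXCR3- innate minus naive. Each value comes from 1 array and both share the naive array, and the difference between them was not tested. After quantile normalization CXCR3- innate minus naive was 0.0088.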

How the results depend on the processing

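No member passed the rule of size under any scaling, offset, filter or probe set rule, nor at 3-fold. At 1.5-fold 1 member passed in CXCR3+ innate minus naive and 1 in CXCR3- innate minus naive, Cxcr5 in both, because the threshold is lower. The median difference of the members ranged from 0.29 to 0.38 in CXCR3+ innate minus naive, from 0.22 to 0.27 in CXCR3- innate minus naive and from 0.06 to 0.07 between the innate populations. One gene value took the other sign: Cxcr4 in CXCR3- innate minus naive was 0.0088 after quantile normalization, and the cause was not tested. Exact ties were broken by rescaling: Cxcr6 in CXCR3+ innate minus naive became -0.0042 after quantile normalization and 0.0173 after median centring. With 1 array per population, none could be left out in turn and no paired analysis was possible. Low signal limits what the values of Cxcr3, Cxcr5, Cxcr6 and Ccr8 can show on all arrays. The naive values of Cxcr3 and Cxcr5 also lay below the median of their array.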

Other observations

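Transcription factors reported elsewhere to act on genes of this family were measured for 10 of 15 listed genes. Tbx21, which encodes T-bet, a known activator of Cxcr3, read 8.68 on the CXCR3+ innate array, 7.98 on the CXCR3- innate array and 7.37 on the naive array, so it had the order of Cxcr3. Its ratio of CXCR3+ innate to naive was 2.49, and it was the one listed factor past 2-fold. Id2, a regulator of effector differentiation, read 9.08, 9.04 and 9.99, and Lef1, of naive and memory T cells, read 10.25, 10.30 and 11.01. No relation between these factors and the receptor genes was tested.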
